A study of Mus musculus with 18 samples.

Results

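The DNA replication and G1/S genes described here are 35 mouse genes that license replication origins, start and run the replication fork, supply deoxynucleotides, copy chromatin and DNA methylation behind the fork, or govern entry into S phase. They were chosen by symbol. Of the 35 genes, 34 had a probe set whose only annotated symbol is the gene, and each was represented by the probe set with the highest mean over the 18 arrays. Chaf1a, a subunit of the chromatin assembly factor, had no such probe set, and its partner Chaf1b stayed below the filter on dim signals in every group, which left 33 members among 12821 genes tested.

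A cell that is about to divide first licenses its origins: the origin recognition complex, with Cdc6 and Cdt1, loads the Mcm2-7 helicase onto DNA in G1 phase. Cyclin E with its kinase, and E2F transcription factors released from the retinoblastoma proteins, then open S phase, during which the helicase is activated and the polymerases copy the genome. Most of these genes are transcribed in late G1 and S phase, so their mRNA is abundant in dividing cell populations and low in resting T cells. In CD4 T cells they are known for their rise after antigen stimulation and for high expression in dividing thymocytes.

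RNA of CD25+ CD4 T cells (Treg, regulatory T cells) and CD25- CD4 T cells (Tconv, conventional T cells) was hybridised to Affymetrix M430v2 arrays, with 3 arrays in each of 6 groups. The fat groups, Treg and Tconv, came from abdominal (epidydimal) fat of male C57Bl/6 mice aged 25 to 35 weeks, with 8 to 10 mice pooled per array. The thymus groups, Treg and Tconv, came from BDC2.5/NOD mice, which carry a T cell receptor transgene on the NOD background, aged 4 to 6 weeks, with 3 to 6 mice per array. The lymph node groups, Treg and Tconv, came from cervical, inguinal and mesenteric nodes of C57BL/6 mice aged 32 to 36 weeks, again with 3 to 6 mice per array. The sort kept CD4+ cells that lacked B220, CD11b and CD8a on their surface; the fat sort also asked for TCRb, and thymus cells were first depleted of CD8a+ cells on magnetic columns. Thymus and lymph node therefore differ in strain, age and tissue together, and these cannot be told apart. Sex is given for the fat mice only. A replicate is a pool of mice, so errors describe the spread between pools.

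Several facts of the whole series bear on these genes. The median intensity of an array was 76.9 to 82.2 in the 6 fat arrays and 57.9 to 63.0 in the 12 others, so tissues were compared after quantile normalization over all 18 arrays, whereas Treg and Tconv of one tissue were compared on the scale as deposited. All 5 T cell markers lay above the filter level, an intensity of 65.9, in every group, and the summed intensity of 4 Treg markers was 8754 to 22162 on Treg arrays, against 1768 to 5810 on Tconv arrays. Of 10 macrophage and monocyte markers, 9 lay above the filter level in fat Treg and 8 in fat Tconv, against 4 in each of the thymus and lymph node groups, and their sum was 1271 to 3714 on fat Treg arrays, 1000 to 2451 on fat Tconv arrays and 523 to 840 on the other arrays. Of 6 adipocyte and stromal markers, 2 lay above it in each fat group, with sums of 742 to 1704 on fat Treg arrays and 737 to 1459 on fat Tconv arrays, and none elsewhere, with sums of 193 to 225. The sum of 2 red cell markers was 420.5 to 930.2 on fat Treg arrays, 414 to 612 on fat Tconv arrays and 44.1 to 64.8 elsewhere. In such bulk samples fewer cells of a type and less RNA per cell cannot be told apart. Thymus Treg replicate 3 stood apart: it had the lowest value of its group for 32 of the 33 members. The median standard deviation of the members was 0.71 on the log2 scale in thymus Treg, against 0.20 for all genes there, and 0.16 to 0.28 for the members in the other 5 groups. Since all groups share one estimate of spread per gene, this array also enters the tests in fat and lymph node, and the counts of called members are given with and without it, a setting chosen after its values were seen.

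RefSeq promoter windows (assembly GRCm38.p6, 250 bases before to 50 after the transcription start) were held for 30 of the 35 genes and not for Ccne2, Gins1, Gins2, Mcm4 and Pole. The windows were searched on both strands for 4 octamers of the E2F site, TTTGGCGC, TTTCCCGC, TTTGCCGC and TTTCGCGC, for the CCAAT box, bound by the trimeric factor NF-Y, and for TTTGAA, the cell cycle homology region of many mitotic promoters. An E2F octamer was found in 13 of 37 member windows, 35.1%, and in 2.26% of all 32851 windows. CCAAT was found in 21 of 37 member windows, 56.8%, and in 37.4% of all windows, and TTTGAA in 4 of 37, 10.8%, and in 17.9%. A match is a run of letters and no evidence of binding. The 4 windows below belong to members called in at least 1 comparison and hold an E2F octamer; capitals mark E2F octamers and CCAAT boxes in either orientation. They lie at chr11:98907901-98908200 (Cdc6, plus strand, octamer at base -138 from the start), chr8:75109259-75109558 (Mcm5, plus strand, octamers at -153 and -149 that overlap on opposite strands, CCAAT at -77, -22 and 7), chr17:56304063-56304362 (Uhrf1, plus strand, octamer at -185, CCAAT at -150 and -107) and chr5:151651159-151651458 (Rfc3, minus strand, octamers at -10 and 1, CCAAT at -229).
Cdc6: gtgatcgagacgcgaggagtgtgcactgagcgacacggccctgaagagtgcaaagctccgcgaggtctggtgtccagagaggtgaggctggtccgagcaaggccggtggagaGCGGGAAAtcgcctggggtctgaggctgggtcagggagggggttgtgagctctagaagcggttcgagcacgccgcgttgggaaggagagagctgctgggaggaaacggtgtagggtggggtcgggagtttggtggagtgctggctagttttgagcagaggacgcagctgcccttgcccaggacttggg
Mcm5: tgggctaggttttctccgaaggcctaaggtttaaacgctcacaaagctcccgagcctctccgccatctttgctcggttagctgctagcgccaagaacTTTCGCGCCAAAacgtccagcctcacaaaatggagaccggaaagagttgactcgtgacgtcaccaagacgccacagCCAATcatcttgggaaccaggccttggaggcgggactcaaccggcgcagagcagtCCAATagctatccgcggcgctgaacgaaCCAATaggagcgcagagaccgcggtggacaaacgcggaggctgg
Uhrf1: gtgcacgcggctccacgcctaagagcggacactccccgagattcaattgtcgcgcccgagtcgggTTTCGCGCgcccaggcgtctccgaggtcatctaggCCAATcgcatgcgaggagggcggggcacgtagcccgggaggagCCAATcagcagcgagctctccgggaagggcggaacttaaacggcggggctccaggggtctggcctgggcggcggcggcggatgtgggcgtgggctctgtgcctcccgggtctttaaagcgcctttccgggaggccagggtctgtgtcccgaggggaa
Rfc3: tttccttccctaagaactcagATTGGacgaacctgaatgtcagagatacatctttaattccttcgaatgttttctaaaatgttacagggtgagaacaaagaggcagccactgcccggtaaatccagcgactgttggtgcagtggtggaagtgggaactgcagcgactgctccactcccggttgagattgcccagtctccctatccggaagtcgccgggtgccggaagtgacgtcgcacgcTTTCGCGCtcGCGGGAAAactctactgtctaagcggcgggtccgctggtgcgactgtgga

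The windows of Ccne1, Tyms, Tk1, Fen1, E2f1, Rfc4 and Rfc5 held neither the octamers nor CCAAT, and those of Rrm2, Pcna and Mcm2 held CCAAT and no octamer. A window covers the start of its RefSeq entry only. Sites at other starts of a gene, E2f1 included, were not searched, so an empty window does not show that the gene lacks them. In the windows searched, members called in the comparisons thus include Cdc6 and Uhrf1 with an octamer, Rrm2 with CCAAT and no octamer, and Tyms and Ccne1 with neither. A further Uhrf1 window, at chr17:56303087-56303386, held 3 CCAAT boxes and no octamer.

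Array by array, the thymus arrays lay above all others in the level of the members. The level of an array was taken as the median over the 33 members of the log2 quantile-normalized intensity minus the gene's mean over 18 arrays. It was -0.59, -0.50 and -0.72 in fat Treg and -0.04, -0.20 and -0.03 in fat Tconv, so the fat Treg arrays lay below the fat Tconv arrays without overlap. In thymus it was 1.50, 1.30 and 0.25 in Treg and 0.53, 0.22 and 0.69 in Tconv, so that Treg replicates 1 and 2 lay above all Tconv arrays and replicate 3 lay among them. In lymph node it was -0.43, -0.19 and -0.10 in Treg and -0.57, -0.24 and -0.54 in Tconv, and the groups overlapped. The same measure over 19 mitosis genes, which act after replication, put the thymus arrays on top as well, with thymus Treg replicate 3 the lowest of the 6 at 0.27.

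**Figure D1:**
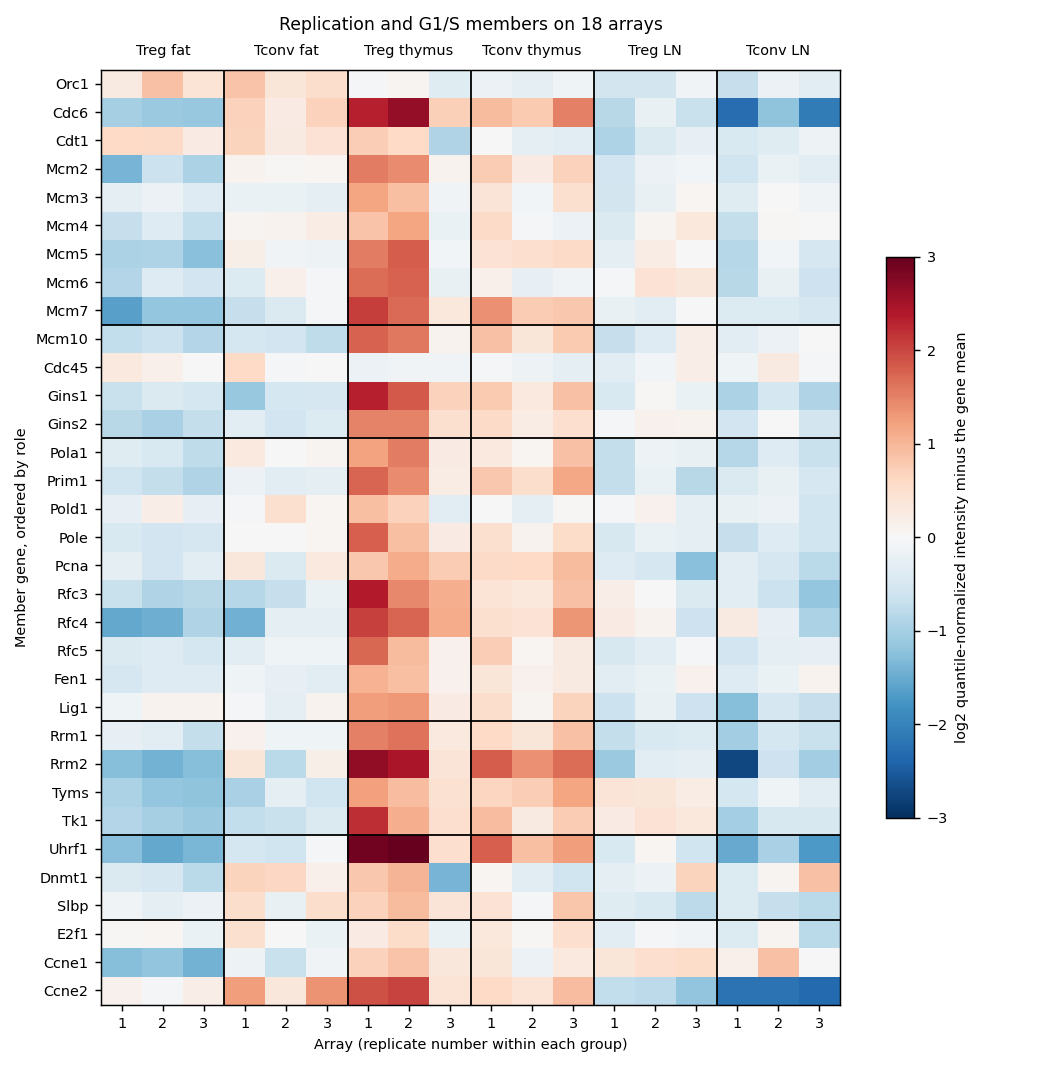
Heat map of the 33 members (rows, ordered by role, with lines between roles) on the 18 arrays (columns, 3 per group, from fat Treg on the left to lymph node Tconv on the right). Colour gives the log2 quantile-normalized intensity minus the gene's mean over the 18 arrays, and thymus Treg replicate 3 is lower than replicates 1 and 2 for 32 of the 33 members, all but Cdc45.

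**Figure D2:**
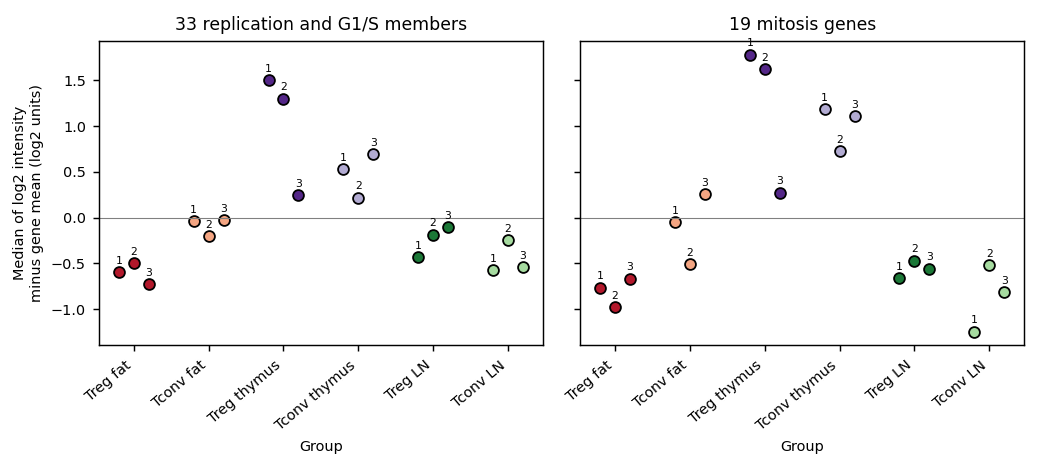
Median level on each array of the 33 members (left) and of 19 mitosis genes (right), as log2 intensity minus the gene mean, with a point per array and its replicate number above it. Thymus Treg replicates 1 and 2 reach 1.50 and 1.30 for the members, replicate 3 reaches 0.25, and the fat Treg arrays lie at -0.50 to -0.72.

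In fat, most members leaned lower in Treg than in Tconv of the same tissue, and few passed the test. Of the 33 members, 4 fell in Treg (Cdc6, Mcm2, Mcm5 and Ccne1) and none rose, while 11.5% of all genes tested passed, 5.19% lower and 6.32% higher. The median log2 difference was -0.47 over the members and 0.01 over all genes, and it was below 0 for 30 members. The 3 Treg arrays lay below the 3 Tconv arrays for 17 members and above them for none, against 13% of all genes below and 12.2% above. Within the pairs of arrays with the same replicate number, which varied together, the median was -0.33, -0.41 and -0.64, with 26, 28 and 33 members lower in Treg. With that pair as a block, 8 members fell and none rose, against 10.5% of all genes lower and 10.2% higher, and the 4 added were Mcm7 (-0.94), Mcm4 (-0.72), Dnmt1 (-1.09) and Rrm2 (-1.27). Fitted on the 6 fat arrays alone, 11 members fell, a count given without the share of all genes. Without thymus Treg replicate 3, which is no fat array but widens the shared estimate of spread, 11 members also fell and none rose, against 5.75% of all genes lower and 6.54% higher. Besides the 4 these were Mcm7, Mcm4, Pola1 of polymerase alpha, Rrm2 (adjusted p = 0.0396), Uhrf1 (adjusted p = 0.0103), Dnmt1 and Ccne2 (adjusted p = 0.00768).

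Markers of other cells differed between the same fat groups. The summed intensity of 5 NK and cytotoxic markers, 4 of them above the filter level in each fat group, was 579.9, 354 and 327 in fat Treg, against 1133, 1852 and 1298 in fat Tconv, without overlap. The macrophage and monocyte sum was higher in Treg in each of the 3 pairs, at 3231, 1271 and 3714 in fat Treg, against 2451, 1000.2 and 2063 in fat Tconv. The part of such cells in the member values was not tested.

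Origin licensing held 3 of the 4 falls in fat. Cdc6, which loads the helicase onto origins, had intensities of 61.5, 54.0 and 52.2 on fat Treg arrays, against 173, 136.5 and 185 on fat Tconv arrays. All Treg values lay below all Tconv values, a log2 difference of -1.55 ± 0.38 (SE; limma, adjusted p = 0.0113). Mcm2, a helicase subunit, had 318, 519.8 and 441 in fat Treg, against 824, 904 and 936 in fat Tconv (-1.09 ± 0.27, adjusted p = 0.0126). Mcm5, another subunit of the same ring, had 408, 403 and 334 in fat Treg, against 817, 779 and 759 in fat Tconv (-1.05 ± 0.32, adjusted p = 0.0439). The groups did not overlap for either subunit. Mcm5 missed the threshold in 9 of 16 alternative settings, with the adjusted p ranging from 0.000455 to 0.151, and Mcm2 in 1 of 16. Of the other licensing members, Mcm7 (-0.94) and Mcm4 (-0.72) did not overlap between groups either, whereas Mcm3 (-0.08), Orc1 (-0.08) and Cdt1 (0.09) overlapped.

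Among the members that act later in S phase, none passed the test in fat. Rrm2, the S phase subunit of ribonucleotide reductase, had 317, 278 and 321 in fat Treg, against 903, 473 and 934 in fat Tconv (-1.27 ± 0.50, adjusted p = 0.132), and the groups did not overlap. Uhrf1, which brings the maintenance methyltransferase Dnmt1 to newly copied DNA, had 72.3, 58.5 and 63.1 in fat Treg, against 115, 107 and 159 in fat Tconv (-0.96 ± 0.47, adjusted p = 0.263). A second Uhrf1 probe set gave -0.06. Pcna, the sliding clamp that holds polymerases on DNA, had 4268, 3319.6 and 4039 in fat Treg, against 5946, 3597 and 6312 in fat Tconv, and these groups overlapped (-0.41 ± 0.26, adjusted p = 0.424). Of the 10 polymerase, clamp, clamp loader and lagging strand members, 4 did not overlap and all 4 were lower in Treg. The helicase activation members varied about a median of -0.08.

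Ccne1, cyclin E1, fell in fat Treg and showed the smallest error of the 4 calls. Its intensity was 159, 160.04 and 142 in fat Treg, against 299.6, 246 and 355 in fat Tconv (-0.95 ± 0.21, adjusted p = 0.0059), with no overlap, and it passed in all 16 alternative settings. Its second probe set gave -0.50. Ccne2, cyclin E2, had 186, 157 and 192 in fat Treg, against 350.4, 222 and 439.6 in fat Tconv (-0.87 ± 0.32, adjusted p = 0.104), again with no overlap. E2f1, an activating E2F factor, overlapped between the groups (-0.13 ± 0.22).

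Other genes of replication and of the G1/S switch were counted beside the members. Over all genes, 5.19% were lower and 6.32% higher in fat Treg than in fat Tconv. Of 47 other replication genes tested, 13 fell in fat Treg and none rose, with a median of -0.40; Rpa2, a subunit of the single-strand binding protein RPA, fell by 1.57, Hells, a chromatin remodeler, by 1.47, and Dck, deoxycytidine kinase, by 1.41 on the log2 scale. Of 27 other G1/S regulators, 1 rose and 4 fell, with a median of 0.01. The one that rose was Cdkn1a, which encodes the cyclin-dependent kinase inhibitor p21, at 4252, 4607 and 4588 in fat Treg, against 1022, 1002 and 1144 in fat Tconv (2.09 ± 0.19, adjusted p = 4.55e-07). The largest falls of that list were E2f8, a repressive E2F factor (-1.40), Ccnd3, cyclin D3 (-0.997), and Rbl1, the retinoblastoma relative p107 (-0.90). Of 19 mitosis genes, Top2a (-1.47) and Mki67 (-1.36) fell and the median was -0.56.

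In thymus, Treg lay above Tconv for most members on 2 of the 3 pairs of arrays and below it on the pair of replicate 3, and 1 member passed the test. The median log2 difference was 0.48, and it was above 0 for 32 of 33 members, against a median of -0.02 over all genes. Of all genes tested, 4.98% passed, 3.21% higher and 1.77% lower. Rfc3, a subunit of the clamp loader that opens Pcna around DNA, had 243, 121 and 93.2 in thymus Treg, against 59.1, 53.2 and 79.6 in thymus Tconv, without overlap (1.15 ± 0.28, adjusted p = 0.0219). Thymus Treg was the one group in which its mean lay above the filter level, so it was tested only through the group where it is high. The call was lost in 4 of 15 alternative settings, and a filter on the mean over 18 arrays removes the gene and leaves no thymus call. The groups did not overlap for 2 members, Rfc3 and Ccne1, against 9.02% of all genes higher and 10.3% lower. With the pairs as a block, Mcm6 (1.12), Gins1 (0.99) and Gins2 (0.72) also rose, which made 4 members higher and none lower, against 6.5% and 5.41% of all genes.

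The pairs of thymus arrays opposed each other. The median over members of Treg minus Tconv was 0.92 in the pair of replicate 1, with 32 of 33 members higher in Treg, and 1.04 in that of replicate 2, with 33 higher. In the pair of replicate 3 it was -0.46, with 3 higher and 30 lower. Without Treg replicate 3, 23 members rose, and without both thymus replicate 3 arrays 21 did, whereas leaving out any other single thymus array left 0 or 1. The share of all genes called in these settings is not given here, so these counts cannot be set against it. Mcm5 had 1904, 2300.1 and 647 in thymus Treg, against 859, 954 and 1031 in thymus Tconv (0.58 ± 0.32, adjusted p = 0.454), and its difference without Treg replicate 3 was 1.15 (adjusted p = 0.00136). Uhrf1 had 971, 1141 and 183 in thymus Treg, against 438, 251 and 320.2 in thymus Tconv (0.84 ± 0.47), and 1.68 without that array (adjusted p = 0.000678). The Treg value of replicate 3 was the lowest of its group for both genes and lay below all 3 Tconv values. Rrm2 followed that order, with 3877, 3369 and 888 in thymus Treg, against 2147, 1639 and 2115 in thymus Tconv (0.21 ± 0.50). Pcna did not, with 6651, 7847 and 6464 in thymus Treg, against 5424, 5440 and 6990 in thymus Tconv (0.24 ± 0.26), nor did Ccne1, with 501, 542 and 393 in thymus Treg, against 386, 277 and 387 in thymus Tconv (0.46 ± 0.21, adjusted p = 0.329). The second Ccne1 probe set gave 0.03.

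Markers of immature thymocytes were also lowest on replicate 3 of thymus Treg. The summed intensity of 10 such markers, 7 of them above the filter level in both thymus groups and 5 in each other group, was 7529, 9386 and 3827 in thymus Treg, against 4966, 7374 and 4438 in thymus Tconv, and 1548 to 1718 in lymph node Treg, against 2484 to 2624 in lymph node Tconv. In thymus Tconv the sum ran in the opposite order to the members, with replicate 2 highest in the sum and lowest in the member level. Dntt, the terminal transferase of cells that rearrange receptor genes, had 3290, 3355 and 457 in thymus Treg, against 1634, 2218 and 705 in thymus Tconv, and Rag1, of the recombinase itself, had 315, 170 and 48.3 in thymus Treg, against 70.7, 198 and 43.1 in thymus Tconv. Neither passed between Treg and Tconv (Dntt 0.33, Rag1 0.70). The markers of this list that did pass by limma without a block were lower in thymus Treg. They were Cd8b1 (-1.11, adjusted p = 0.0095) and Themis (-0.97, adjusted p = 0.00054). By limma with the pairs as a block both passed again, and Cd24a passed as well, higher in thymus Treg (1.00, adjusted p = 0.0204). The sum of 5 NK and cytotoxic markers was 4093, 6606 and 1487 in thymus Treg, against 1376, 1034 and 1755 in thymus Tconv, most of it Gzma, granzyme A. Only 2 of the 5 lay above the filter level in each thymus group, so this sum rests on few genes. The part of cells with either set of markers in the member values was not tested. Of 47 other replication genes, the nucleotide pyrophosphatase Dctpp1 rose in thymus Treg (0.88) and the histone chaperone Asf1b fell (-0.95), with a median of 0.23. Of 27 G1/S regulators, Cdk6, a kinase partner of D cyclins (1.55), and Skp2, which targets kinase inhibitors for degradation (1.01), rose and Ccnd3 fell (-0.60). Over all genes, 3.21% were higher and 1.77% lower in thymus Treg than in thymus Tconv. Of 19 mitosis genes none passed, by limma, with the replicate block or at an unadjusted p under 0.05, and the median was 0.21.

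In lymph node, Ccne2 was the only member that passed the test. It had 78.8, 74.2 and 60.6 in lymph node Treg, against 27.5, 28.7 and 28.1 in lymph node Tconv, without overlap (1.33 ± 0.32, adjusted p = 0.0224), and the call held in 11 of 16 alternative settings. Its Tconv values lay under the filter level. The median log2 difference was 0.23 and it was above 0 for 26 members, against -0.02 over all genes, of which 4.32% passed, 3.21% higher and 1.11% lower. The Treg arrays lay above the Tconv arrays for 9 members and below for none, against 9.91% and 6.63% of all genes. Among these were Cdc6 at 47.4, 73.8 and 57.7 in lymph node Treg, against 17.4, 38.5 and 22.1 in lymph node Tconv (1.26 ± 0.38, adjusted p = 0.0865), with both means under the filter level. Tk1, thymidine kinase, had 114, 129 and 117 in lymph node Treg, against 45.1, 67.2 and 70.4 in lymph node Tconv (1.00 ± 0.31), and it passed with the pairs as a block (adjusted p = 0.0196), which made 2 members higher and none lower, against 5.6% and 2.42% of all genes. Uhrf1 also did not overlap, with 91.7, 133 and 85.0 in lymph node Treg, against 42.8, 63.9 and 40.7 in lymph node Tconv (1.07 ± 0.47, adjusted p = 0.359), but its second probe set gave -0.02. Without thymus Treg replicate 3, 5 members rose and none fell, against 3.47% of all genes higher and 1.15% lower, namely Ccne2, Cdc6 (adjusted p = 0.00666), Uhrf1 (adjusted p = 0.0102), Tk1 and Mcm6. The sum of the NK and cytotoxic markers was 276, 309.7 and 331 in lymph node Treg, with 1 of 5 above the filter level, against 866, 835 and 722 in lymph node Tconv, with 4 of 5, and its part in the member values was not tested.

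Mcm5, Rrm2, Pcna and Ccne1 overlapped between lymph node Treg and Tconv. Mcm5 had 571, 786 and 586 in Treg, against 388, 599.98 and 408 in Tconv (0.49 ± 0.32). Rrm2 had 319, 532 and 482 in Treg, against 94.9, 399 and 279 in Tconv (0.98 ± 0.50, adjusted p = 0.52). Pcna had 2901, 2629 and 1419.8 in Treg, against 3119, 2536 and 1974 in Tconv (-0.18 ± 0.26), and Ccne1 had 424, 446 and 401 in Treg, against 362, 536 and 268 in Tconv (0.18 ± 0.21). The second Ccne1 probe set gave -0.30. All 4 deoxynucleotide supply members were above 0 on the probe sets used, with a median of 0.81, and none passed by limma without a block. Their other probe sets gave -0.11 and -0.09 for Rrm1, 0.83 and 0.27 for Rrm2 and 0.03 to 0.16 for Tyms. Both lymph node means of Tyms lay under the filter level. Of the other lists, Pole2, a subunit of polymerase epsilon, fell (-1.24) and Cdk6, a cyclin D partner, rose (1.05), with medians of 0.05 over 47 replication genes, 0.11 over 27 G1/S regulators and 0.33 over 19 mitosis genes. Over all genes, 3.21% were higher and 1.11% lower in lymph node Treg than in lymph node Tconv. Fitted on the 6 lymph node arrays alone, 5 members rose, a count given without the share of all genes.

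**Figure D3:**
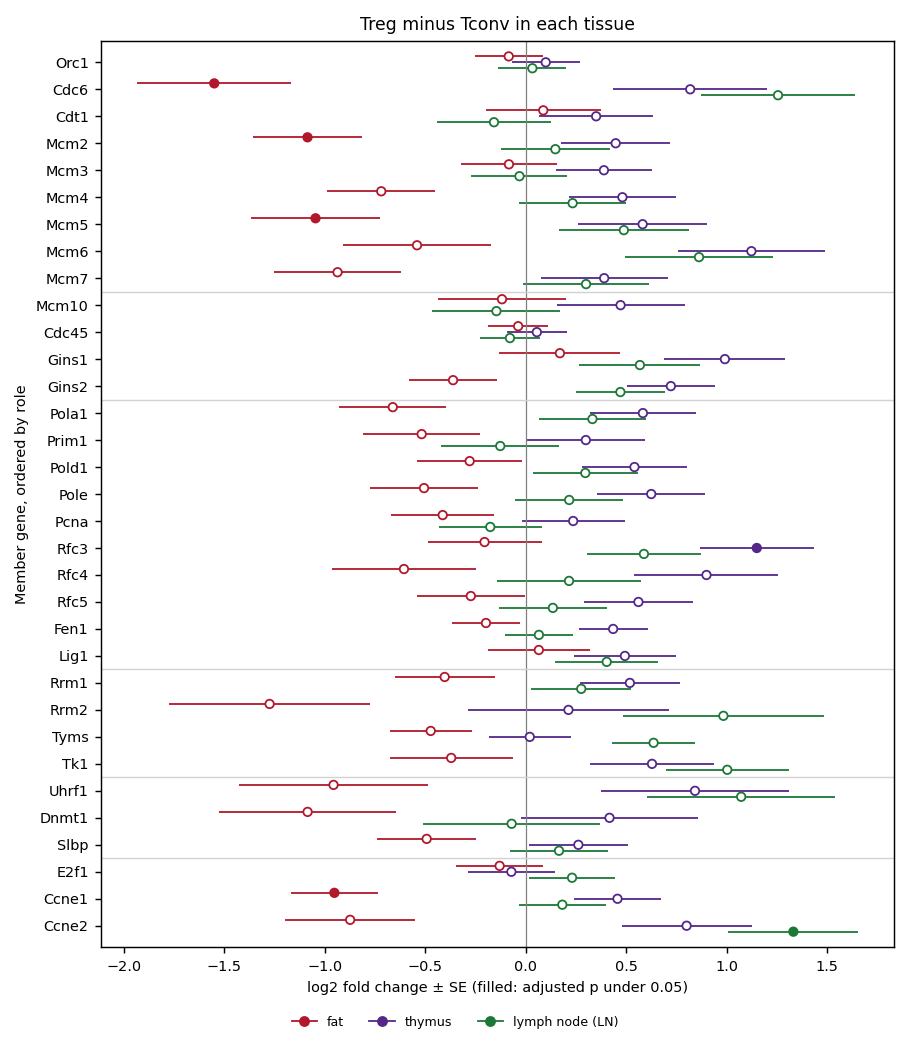
Log2 difference of Treg minus Tconv for the 33 members in fat (red), thymus (purple) and lymph node (green), with the standard error of the limma fit as a bar and filled points where the adjusted p is under 0.05. The fat points lie left of 0 for 30 members, the thymus points right of 0 for 32 and the lymph node points right of 0 for 26.

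The Treg effect in fat differed from that in lymph node for 4 members, by an interaction term. Cdc6 differed by -2.81 ± 0.54 (adjusted p = 0.0038), Ccne2 by -2.21 ± 0.46 (adjusted p = 0.00698), Ccne1 by -1.13 ± 0.30 (adjusted p = 0.0382) and Tyms, thymidylate synthase, by -1.11 ± 0.29 (adjusted p = 0.0326), each lower in fat. Over all genes 4.85% passed, 2.16% with a higher and 2.69% with a lower effect in fat. For Cdc6 and Ccne2 the Treg arrays lay below Tconv in fat and above it in lymph node with no overlap on either side. Tyms had 34.5, 28.6 and 26.7 in fat Treg, against 34.1, 50.7 and 40.7 in fat Tconv, which overlapped, and 61.1, 59.9 and 58.3 in lymph node Treg, against 32.3, 43.9 and 40.1 in lymph node Tconv, all of them under the filter level. Cdc6 and Ccne2 passed in all 22 alternative settings, Ccne1 in 11 and Tyms in 11 of 20, and the second Ccne1 probe set gave -0.20. With the pairs as a block, 12 members passed, all lower in fat, against 6.37% of all genes lower and 4.67% higher. The 8 added were Rrm2, Uhrf1, Mcm5, Mcm6, Tk1, Mcm7, Mcm2 and Mcm4. Without thymus Treg replicate 3, 12 also passed, all lower in fat, against 3.17% of all genes lower and 2.27% higher. The second Uhrf1 probe set gave -0.04, against -2.03 for the one used.

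Between thymus and lymph node the Treg effect differed for no member by limma, with a median difference of 0.25 over the members, while 0.304% of all genes passed, 0.156% higher and 0.148% lower. At an unadjusted p under 0.05, 1 member passed. No member passed with the pairs as a block either, against 0.406% and 0.655% of all genes. The largest differences in size were those of Rrm2 (-0.77 ± 0.71) and Rfc4 (0.68).

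**Figure D4:**
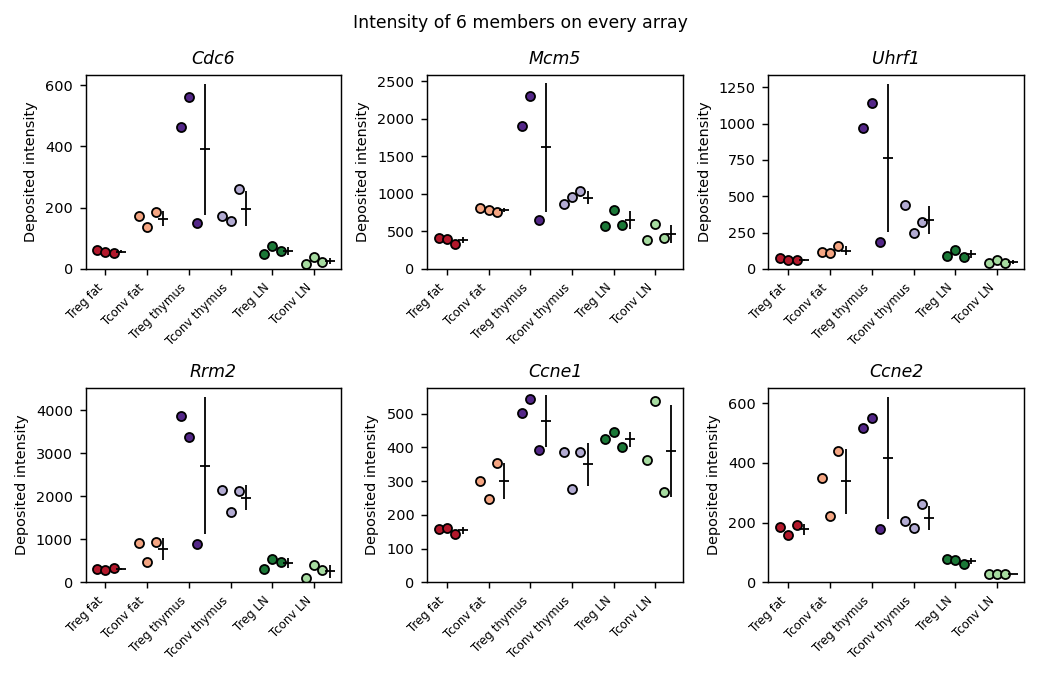
Deposited intensity of Cdc6, Mcm5, Uhrf1, Rrm2, Ccne1 and Ccne2 on each array (points, 3 per group), with the group mean and standard deviation to the right of the points, on linear axes that start at 0. The fat Treg arrays lie below the fat Tconv arrays for all 6 genes, and thymus Treg replicate 3 lies below replicates 1 and 2 in all 6.

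Fat was then set against lymph node for each population, on quantile-normalized values. In Treg, 3 members were higher in fat and 7 were lower, while 34.3% of all genes tested passed, 16.1% higher and 18.2% lower. The members were thus called no more often than genes at large, slightly more often lower and less often higher. The median over the members was -0.34, against 0.01 over all genes; on the scale as deposited the medians were -0.01 and 0.37. Groups did not overlap for 5 members higher and 15 lower in fat, against 23.7% and 25.8% of all genes. Fat and lymph node share 3 groups of neighbouring array file numbers, and within these the member median was -0.19, -0.37 and -0.38. With replicate number as a block, which did not pair arrays across tissues, 4 members were higher and 12 lower, against 15.4% and 19.2% of all genes. Without thymus Treg replicate 3, 3 were higher and 11 lower, against 16.2% and 19.1%.

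The members that were lower in fat Treg came from several roles. Ccne1 had quantile-normalized intensities of 134, 142 and 122 in fat Treg, against 419, 455 and 471 in lymph node Treg (-1.76 ± 0.22, adjusted p = 8.62e-06), although its second probe set gave -0.38. Tyms had 27.4, 23.3 and 22.6 in fat Treg, against 68.6, 67.6 and 61.7 in lymph node Treg (-1.44 ± 0.20, adjusted p = 3.9e-05). Its values lay under or close to the filter level, and its 3 other probe sets gave -0.12 to -0.25. Tk1 had 55.7, 51.2 and 47.2 in fat Treg, against 121, 139.7 and 129 in lymph node Treg (-1.34 ± 0.30, adjusted p = 0.00218). None of these 3 genes overlapped between the tissues. Rfc4, of the clamp loader (-1.21), Mcm7 (-1.14), Mcm5 (-1.01) and Gins2, of the GINS complex in the active helicase (-0.91), were also lower. On the scale as deposited, Rfc4 (-0.82), Mcm5 (-0.75) and Gins2 (-0.53) no longer passed.

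Higher in fat Treg were Cdt1, Ccne2 and Orc1. Cdt1, the helicase loading partner of Cdc6, had 1530.1, 1513 and 1211 in fat Treg, against 532, 751 and 860.1 in lymph node Treg (1.01 ± 0.31, adjusted p = 0.0175). Ccne2 had 159.6, 139 and 166 in fat Treg, against 87.1, 83.4 and 64.1 in lymph node Treg (0.99 ± 0.33, adjusted p = 0.0273), while Ccne1 moved the other way. Orc1, the largest subunit of the origin recognition complex, had 271, 411 and 297 in fat Treg, against 154, 154 and 209 in lymph node Treg (0.92 ± 0.19, adjusted p = 0.00132). Groups did not overlap for any of the 3. Pcna overlapped, with 3313, 2746 and 3229.7 in fat Treg, against 3135, 2874 and 1718 in lymph node Treg (0.31 ± 0.23). Rrm2 (-0.76) and Uhrf1 (-1.06) lay lower in fat Treg on every array without passing.

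In Tconv the tissue difference ran the other way for most members. In fat, 5 members were higher and 1 was lower than in lymph node, against 10.9% and 11.6% of all genes (22.5% in all), and the median was 0.45 over the members and -0.03 over all genes. Both directions together, the members were called no more often than genes at large. Groups did not overlap for 13 members higher and 2 lower, against 16.8% and 19.4% of all genes. Ccne2 had 345, 184 and 368 in fat Tconv, against 31.0, 31.2 and 28.8 in lymph node Tconv (3.24 ± 0.33, adjusted p = 2.16e-06). Cdc6 had 155, 115 and 157 in fat Tconv, against 19.7, 42.0 and 22.6 in lymph node Tconv (2.41 ± 0.38, adjusted p = 0.000193). For both genes the lymph node Tconv values lay under the filter level, where the size of a difference is uncertain. Orc1 had 407, 288 and 322 in fat Tconv, against 139.5, 199 and 179 in lymph node Tconv (0.97 ± 0.19, adjusted p = 0.00139). Slbp, which binds the stem-loop of histone mRNA (0.91), and Lig1, the ligase that joins lagging strand fragments (0.76), were also higher. Ccne1 had 292, 204 and 300.5 in fat Tconv, against 362, 594 and 319 in lymph node Tconv (-0.65 ± 0.22, adjusted p = 0.042), a call that was lost in 8 of 17 alternative settings. Without thymus Treg replicate 3, 11 were higher and 1 lower, against 11.4% and 12.4% of all genes. With replicate number as a block 13 members were higher and none lower, against 11.1% and 12.3% of all genes, and within the shared groups of array file numbers the median was 0.59, 0.08 and 0.46.

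In both populations the macrophage, adipocyte and red cell markers given above were also higher in fat than in lymph node. The part of such cells in the member values was not tested. Of 47 other replication genes, none was higher and 17 were lower in fat Treg than in lymph node Treg, Dck by -1.75, Hells by -1.49 and Orc5 by -1.48 first among them, whereas 5 were higher and 7 lower in fat Tconv, with Nasp (1.46), Dbf4 (1.10) and Orc6 (1.00) higher and Pole2 (-1.02), Timeless (-0.82) and Orc5 (-0.80) lower. Of 27 G1/S regulators 5 were higher and 6 lower in fat Treg, against 16.1% and 18.2% of all genes. In fat Tconv 4 were higher and 2 lower, against 10.9% and 11.6% of all genes. Cdkn1a led in both, with 3295, 3672 and 3611 in fat Treg, against 113, 149 and 173 in lymph node Treg (4.62 ± 0.19), and 983, 838 and 947 in fat Tconv, against 110.4, 130.1 and 115 in lymph node Tconv (2.96 ± 0.19). Of 19 mitosis genes 1 was higher and 1 lower in fat Treg, and 5 were higher in fat Tconv, Mki67 (1.96), Cdk1 (1.68) and Top2a (1.37) first. The counts of G1/S regulators, and those of other replication genes in fat Tconv, lay near the shares of all genes.

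Thymus carried more of the replication transcripts than lymph node in both populations. In Treg, 22 of 33 members were higher in thymus and none lower, against 6.12% and 5.71% of all genes (11.8% in all), with a median of 1.21 over the members and -0.000845 over all genes. Groups did not overlap for 20 members, all higher in thymus, against 11.6% of all genes higher and 12% lower. Uhrf1 had 1023, 1207 and 195 in thymus Treg, against 100.04, 144 and 91.1 in lymph node Treg, 5.68-fold higher (2.51 ± 0.47, adjusted p = 0.00175), while its second probe set gave 0.75. Cdc6 had 486, 601 and 159 in thymus Treg, against 54.2, 83.0 and 61.0 in lymph node Treg (2.47 ± 0.38, adjusted p = 0.000296). Rrm2 had 4302, 3733 and 902 in thymus Treg, against 318, 544 and 569 in lymph node Treg (2.40 ± 0.53, adjusted p = 0.00584). In all 3 genes even thymus Treg replicate 3 lay above every lymph node Treg array. Mcm5 had 2042, 2492 and 662 in thymus Treg, against 569.9, 815 and 693 in lymph node Treg, which overlapped (1.13 ± 0.34, adjusted p = 0.0386), and it missed the threshold in 7 of 16 alternative settings. Pcna had 7195, 8912 and 6931 in thymus Treg, against 3135, 2874 and 1718 in lymph node Treg (1.61 ± 0.23, adjusted p = 0.000155).

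By role, 5 of 9 licensing members were higher in thymus Treg, namely Cdc6, Mcm7 (1.55), Mcm2 (1.30), Mcm5 and Mcm3 (0.90), and 3 of 4 helicase activation members, Gins1 (1.83), Mcm10 (1.44) and Gins2 (1.08). Of the 10 polymerase, clamp and lagging strand members 9 were higher. These were Rfc3 (1.72), Rfc4 (1.72), Prim1 of the primase (1.71), Pcna, Lig1 (1.42), Pola1 of polymerase alpha (1.36), Pole of polymerase epsilon (1.29), Rfc5 (1.21) and the flap endonuclease Fen1 (0.81). Rfc3 was tested only through thymus Treg, the group where it is high, so its call here is no independent support. Rrm1 (1.67), the large subunit of ribonucleotide reductase, was higher beside Rrm2, as were Slbp (1.20) beside Uhrf1, and Ccne2 (2.34) alone of the G1/S control members. Ccne1 (0.16 ± 0.22), E2f1 (0.36), Dnmt1 (0.08) and Cdc45 (-0.06) did not pass; other probe sets gave 0.87 for Ccne1, 1.19 and 0.30 for E2f1, 0.69 and 0.07 for Dnmt1 and 1.72 for Cdc45. Of the 22 called members 16 had other probe sets, 26 in all, of which 26 gave a difference of the same sign and 15 one of at least 0.5 of the size on the log2 scale. Among the smaller ones were 0.06 and 0.45 for Rrm1, 0.08 and 0.02 for Slbp and 0.03 and 0.07 for Mcm10. One group of neighbouring array file numbers holds both a thymus and a lymph node pair, replicate 3 of thymus and replicate 1 of lymph node, and there the member median was 0.62, with 29 members higher in thymus. With replicate number as a block 20 were higher and none lower, against 7.46% and 7.11% of all genes. Without thymus Treg replicate 3, 28 were higher, and fitted on the compared arrays alone 12 were, both counts given without the share of all genes.

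In Tconv, 18 members were higher in thymus than in lymph node and none lower, against 4.38% and 4.5% of all genes (8.88% in all), with a median of 0.99 over the members and -0.01 over all genes. Groups did not overlap for 23 members, all higher, against 13.9% of all genes higher and 13.2% lower. Rrm2 had 2397, 1766 and 2192 in thymus Tconv, against 104, 444 and 332 in lymph node Tconv, 8.47-fold higher (3.08 ± 0.53, adjusted p = 0.000881). Cdc6 had 186, 166 and 273 in thymus Tconv, against 19.7, 42.0 and 22.6 in lymph node Tconv (2.94 ± 0.38, adjusted p = 5.51e-05). Ccne2 had 218, 192 and 273 in thymus Tconv, against 31.0, 31.2 and 28.8 in lymph node Tconv (2.89 ± 0.33, adjusted p = 1.5e-05). The thymus arrays lay above the lymph node arrays for all 3 genes. Uhrf1 had 477, 259 and 331 in thymus Tconv, against 48.3, 70.5 and 42.0 in lymph node Tconv (2.72 ± 0.47, adjusted p = 0.000936), while its second probe set gave 0.16. The lymph node Tconv means of Cdc6, Ccne2 and Uhrf1 lay under the filter level. Pcna had 6065, 6199 and 7873 in thymus Tconv, against 3264, 2864 and 2351 in lymph node Tconv (1.25 ± 0.23, adjusted p = 0.00161), whereas Ccne1 overlapped at 417, 285 and 397 in thymus Tconv, against 362, 594 and 319 in lymph node Tconv (-0.18 ± 0.22). The second Ccne1 probe set gave 0.53.

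The other members called in Tconv lay between 0.81 and 1.43. They were Gins1 (1.43), Mcm7 (1.43), Rrm1 (1.36), Tk1 (1.31), Rfc3 (1.25), Lig1 (1.25), Prim1 (1.23), Tyms (1.19), Pola1 (1.05), Slbp (1.05), Mcm2 (0.96), Pole (0.92) and Gins2 (0.81), so that all 4 deoxynucleotide supply members were higher. Rfc3 lay under the filter level in both Tconv groups and was tested only through thymus Treg, where it is high. Tyms lay under the filter level in all fat and lymph node groups, so it was tested only through the thymus groups. Of the 18 called members 12 had other probe sets, 19 in all, of which 18 gave the same sign and 9 at least 0.5 of the size. Those of the deoxynucleotide supply members gave -0.34 and 0.40 for Rrm1, 4.84 and 1.89 for Rrm2 and 0.13 to 0.36 for Tyms. Mcm5 had 946, 994 and 1055 in thymus Tconv, against 387, 665 and 493 in lymph node Tconv, without overlap (0.99 ± 0.34, adjusted p = 0.0883). In the shared group of array file numbers the member median was 1.23, with 31 members higher. With replicate number as a block 14 were higher and none lower, against 5.6% and 5.48% of all genes.

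The other lists moved with the members in thymus. Over all genes, 6.12% were higher and 5.71% lower in thymus Treg than in lymph node Treg, and 4.38% and 4.5% in Tconv. Of 47 other replication genes 21 were higher and 2 lower in thymus Treg, with Asf1b (2.90), Pole2 (1.93) and the nuclease-helicase Dna2 (1.89) first, and 7 were higher and 2 lower in thymus Tconv, with Asf1b (3.92), Dna2 (1.88) and Hells (1.78) first. The lower genes were Prim2 (-0.73 in Treg, -0.70 in Tconv) and Rrm2b (-0.68 in Treg, -0.95 in Tconv) in both. Of 27 G1/S regulators 12 were higher in thymus Treg, with Skp2 (2.15), Cks1b (2.12) and E2f8 (1.94) first, and 13 in thymus Tconv, with E2f2 (2.09), Cks1b (1.76) and E2f8 (1.66) first, and none lower in either. Of 19 mitosis genes 18 were higher in thymus Treg, median 1.75, and 16 in thymus Tconv, median 1.82. Immature thymocyte markers were higher in both thymus groups than in lymph node, by the sums given above.

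**Figure D5:**
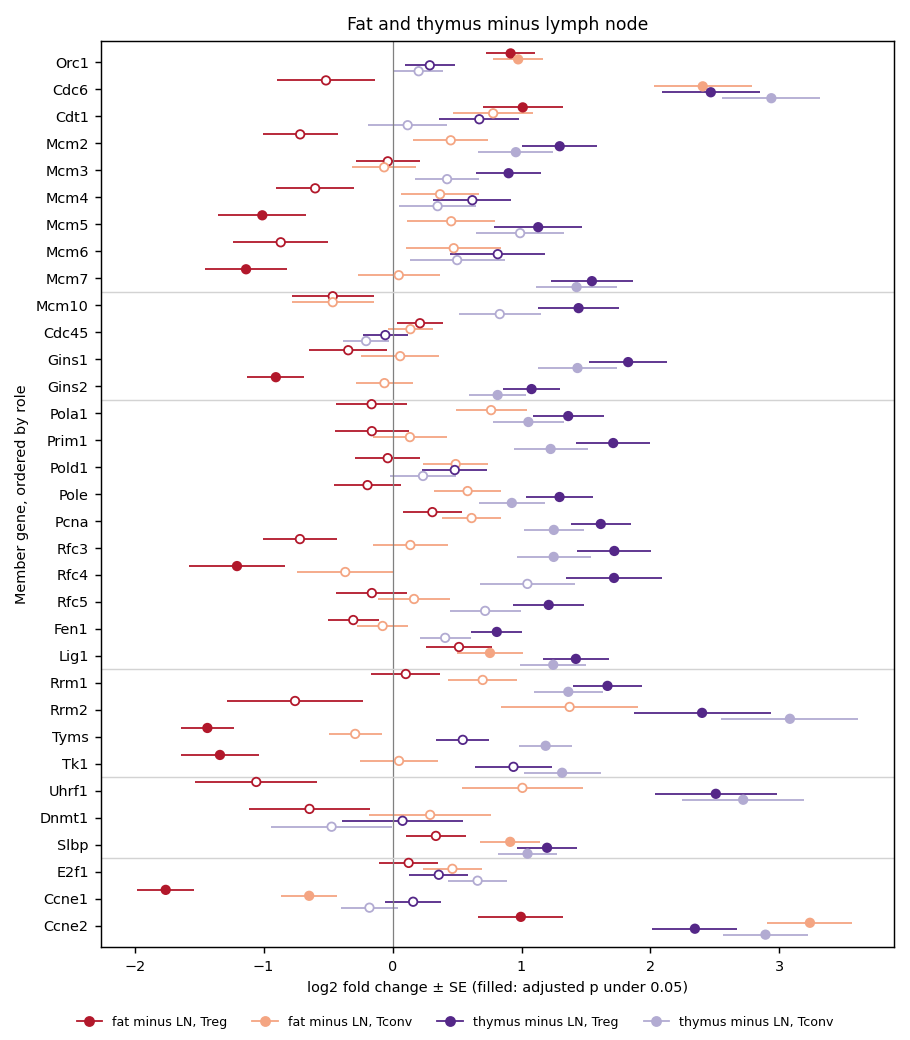
Log2 difference between tissues for the 33 members, as fat minus lymph node (red for Treg, orange for Tconv) and thymus minus lymph node (dark purple for Treg, pale purple for Tconv), with standard errors and filled points where the adjusted p is under 0.05. The thymus points lie right of 0 for 32 members in Treg and 30 in Tconv, and the fat points part by population, 9 members right of 0 in Treg and 26 in Tconv.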

How the data were processed

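The values are probe set intensities on a linear scale from 18 Affymetrix M430v2 arrays. The authors deposited these intensities after RMA, which corrects background, quantile-normalizes and summarises probes, per the submitters' processing notes; the version and which arrays were normalized together are not given in the sources used here. Total RNA was amplified in 2 rounds, per the labels' protocols. Of 45101 probe sets, 64 were controls, 34945 carried 1 symbol in the platform annotation used, 932 several and 9160 none. Each of 18193 genes was represented by its brightest probe set, and 12821 genes with a group mean above log2 6.04 (intensity 65.9) in at least 1 group were tested. The platform annotation can be old, and of the 34 genes measured 27 had over 1 probe set.

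The limma package (3.58.1, under R 4.3.3) fitted a mean per group to the log2 intensity of every gene on the 18 arrays and moderated the spread with eBayes. Genes with a p under 0.05 after Benjamini-Hochberg adjustment across the 12821 tested count as called. Errors of log2 differences are standard errors of that fit, and p-values in the text are its adjusted p. Treg and Tconv of a tissue were compared as deposited; tissues were compared after quantile normalization over the 18 arrays. For arrays no depth is given, and 3 arrays per group limit the precision.

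The members and lists were chosen with earlier results of these data known. Members are named where called; values on every array are given for the 3 largest calls in each direction of a comparison and for Mcm5, Pcna, Rrm2, Uhrf1 and Ccne1, and of other lists the 3 largest calls in each direction are named. Tk1, Ccne2, Cdc6 and Tyms values beyond this rule, and the marker genes, were added after their values were seen.

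Within a tissue, arrays that share a replicate number in the labels varied together: deviations from the group means correlated at 0.35 to 0.68 over genes, each array best with its own number, so the numbers pair the arrays within a tissue. Across tissues they did not, at -0.43 to 0.09 for fat and lymph node and -0.26 to 0.27 for thymus and lymph node. Array file numbers in the labels fall into 5 groups of neighbours, each holding arrays of both populations. What the numbers stand for is not stated. Matched by these groups, fat and lymph node arrays correlated at 0.09 to 0.37 in Treg and at -0.04 to 0.40 in Tconv. Each fat array was best with the lymph node array of its own group, except fat Tconv replicate 2. Alternatives were the replicate block, the scale, the filter, all probe sets averaged, a trended prior, array weights, a fit on the compared arrays alone, the array number block and each array left out. Promoter windows come from RefSeq (GRCm38.p6).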

Additional observations from a re-analysis of the deposited data

Results flagged for a closer look

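For 4 members the difference between Treg and Tconv was not the same in fat and in lymph node, by the interaction term of the limma fit. For Cdc6 the effect in fat minus that in lymph node was -2.81 (adjusted p = 0.0038), with Treg below Tconv by 1.55 in fat and above it by 1.26 in lymph node, in 3 of 3 pairs of arrays in each tissue. For Ccne2 it was -2.21 (adjusted p = 0.00698), from -0.87 in fat and 1.33 in lymph node. For Ccne1 it was -1.13 (adjusted p = 0.0382), from -0.95 in fat and 0.18 in lymph node, and its second probe set gave -0.20. For Tyms it was -1.11 (adjusted p = 0.0326), from -0.47 in fat and 0.64 in lymph node, on a probe set whose group means lie under the filter level in both tissues.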

How the results depend on the processing

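Counts of called members depended on the arrays fitted, the model, the scale and the filter. Shares over all genes are given above for the replicate block and for the fat and lymph node tests without thymus Treg replicate 3. The other settings are given as counts alone, so a change in the count of members cannot be set against that over all genes. With the replicate block, the count was 2 against 1 for Treg and Tconv in lymph node, 4 against 1 in thymus and 8 against 4 in fat, 12 against 4 for the Treg effect in fat minus lymph node, 16 against 10 for fat minus lymph node in Treg and 13 against 6 in Tconv; it stayed within 1.5 times for the thymus and lymph node comparisons (20 and 14 members) and at 0 for the Treg effect in thymus minus lymph node. With only the compared arrays fitted, the counts were 5 in lymph node, 0 in thymus, 11 in fat, 18 for fat minus lymph node in Treg, 10 in Tconv, 12 for thymus minus lymph node in Treg and 14 for the Treg effect in fat minus lymph node. With array weights they were 4 in lymph node, 4 in thymus, 15 in fat, 10 for fat minus lymph node in Tconv and 16 for the Treg effect in fat minus lymph node. With the array number block they were 17 for fat minus lymph node in Treg and 16 in Tconv. On the scale as deposited, 17 members were called for fat minus lymph node in Tconv, and the filter on the mean over 18 arrays left 0 in thymus, where it removes Rfc3. Leaving out each array in turn gave 0 to 5 members in lymph node, 0 to 23 in thymus, 2 to 11 in fat, 5 to 14 for fat minus lymph node in Treg, 4 to 12 in Tconv, 19 to 28 and 12 to 18 for thymus minus lymph node in Treg and Tconv, 2 to 12 for the Treg effect in fat minus lymph node and 0 to 1 in thymus minus lymph node. The upper ends of 5, 23, 11, 14, 12, 28 and 12 came without thymus Treg replicate 3, which was left out of the fat and lymph node tests after seeing the data; leaving out both thymus replicate 3 arrays, likewise chosen, gave 21 in thymus. The count in thymus was 0 without Treg replicate 1 or Tconv replicate 1 or 2, and in lymph node it was 0 without Treg replicate 1 or 2 or Tconv replicate 1 or 3. For the Treg effect in fat minus lymph node it was 2 without any lymph node Treg array, lymph node Tconv replicate 1 or 3, fat Treg replicate 2 or 3 or fat Tconv replicate 3. In fat the count of 2 came without Treg replicate 1, and the count of 5 for fat minus lymph node in Treg also came without fat Treg replicate 1. Apart from the removal of Rfc3 by the filter, the cause of the shifts in these counts was not tested. Of 98 results for single genes, the 66 past the threshold kept their sign in each alternative, and 6 of the other 32 took the other sign in 17 values, Pcna and Ccne1 in lymph node among them. Of 1657 alternative values, 123 fell short of the threshold where the reported one passed and 56 passed where it did not. Between fat and lymph node the member median moved with the scale, to -0.01 in Treg and 0.77 in Tconv as deposited, where all genes moved by 0.37 and 0.33.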
